A study of Homo sapiens with 8 samples.

Results

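A single Agilent oligonucleotide expression array compared EBC-1 cells that had received miR-150-3p with control cells of the line, and it is 1 of 8 arrays in the series. RNA of the transfected cells was labeled with Cy5 (red) and RNA of the control cells with Cy3 (green). The labels call the control mock in one field and give it no transfection in another, so it is called mock here. No genotype, allele or further agent is given for either group. EBC-1 is an established lung squamous cell carcinoma (LUSQ) line, and microRNA was delivered with the lipid reagent Lipofectamine RNAiMAX. The other arrays held miR-150-3p over mock in SK-MES-1 cells, another LUSQ line, and 6 arrays of other treatments in other lung cancer lines. The question addressed by the comparison was which genes lie lower after the transfection, as candidate targets of the microRNA. There was no replicate of the array and no dye swap, so no test of a gene was possible and nothing below carries a p-value.

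A microRNA is loaded into an Argonaute protein and pairs through its seed with messenger RNAs, which are then degraded or translated less. Each precursor gives a 5p and a 3p strand. Of miR-150 the 5p strand is the guide strand, and miR-150-3p is the strand long regarded as the passenger. RNA levels in transfected cells hold both direct targets and genes that move because the state of the cells has changed, and an expression array does not separate them.

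Genes were included by a rule on signal. A probe counted if either channel rose well above background in its processed signal, control spots and spots marked as outliers being left out, and the probes of a gene were averaged. This gave 14759 genes with a current symbol, of which 12472 had all counted probes well above background in both channels (for a probe with several spots, in at least 1 of them). All values below are log2 ratios of miR-150-3p over mock unless a signal is named, and a negative one denotes less RNA in the transfected cells. The signal is the processed intensity in scanner units, and it is not comparable between genes. The median log2 ratio over all genes was 0.05, and the quartiles were -0.31 and 0.40. The software's error of a gene's log2 ratio, which covers noise within an array only, had a median of 0.22.

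The technical spread could be measured on the array itself, since 300 probes were spotted 10 times. For the 279 of these that were well above background in both channels of every spot counted, the SD of the log2 ratio over spots had a median of 0.051 and ranged from 0.011 to 0.296. Spots marked as outliers and spots dim in both channels were not counted. The SD is thus the spread of the spots kept, at least 5 per probe. For 6 probes that were dim in a channel, the median SD was 0.453. Repeated spots do not show the spread between cultures. In the 3081 genes with several probes bright in both channels, the range between probes had a median of 0.25.

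Of the 14759 genes, 892 (6.04%) were below -1 and 879 (5.96%) were above 1. The counts were alike, but the signals behind them differed. Among the lower genes, 749 were bright in both channels, and 98 were not well above background after transfection. Among the higher genes, 439 were bright in both channels, and 379 were not well above background in mock. Past -2 there were 134 genes and past 2 there were 144, of which 100 and 50 were bright in both channels. Protein-coding genes made up 87.4% of all genes, 91.5% of the lower genes and 85.2% of the higher genes. Long noncoding RNAs made up 8.50% of all genes, 5.83% of the lower and 11.4% of the higher. With limma's normexp background correction and loess in place of the scanner software's steps, 259 genes (1.75%) were below -1 and 134 (0.908%) above 1, so that the higher genes made up 34.1% of the calls in place of 49.6%. In another alternative, the mean of the 6 arrays of other treatments, which share any dye bias of a probe, was subtracted. This left 12969 genes, those with a value on every array, so the counts are not over the same genes. Among these, 788 were below -1 and 440 above 1 (35.8% higher), of which 633 and 312 were among the 892 and 879.

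**Figure D1:**
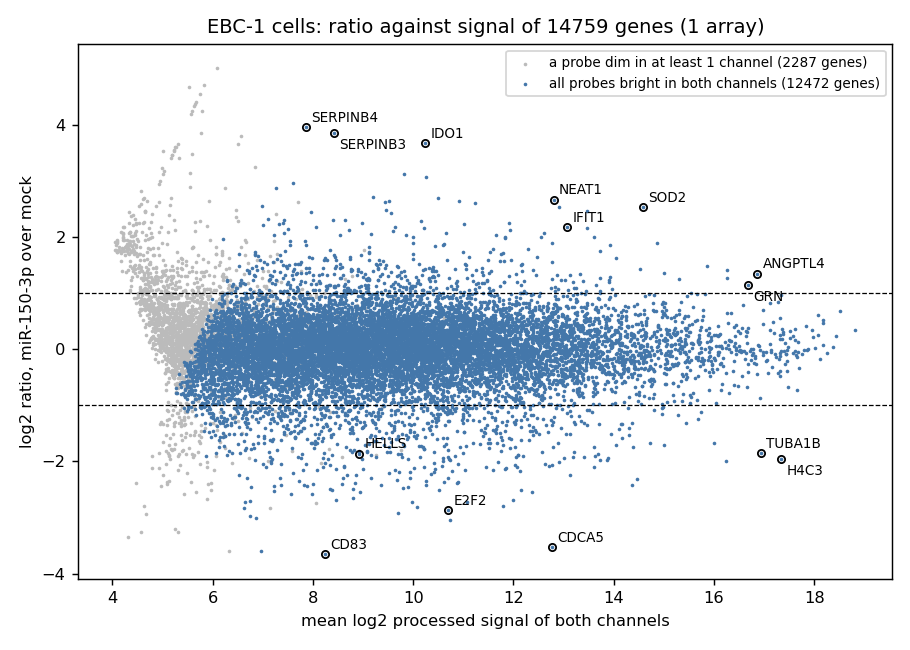
Log2 ratio of miR-150-3p over mock on the y axis against the mean log2 processed signal of both channels on the x axis, 1 point per gene on the EBC-1 array, with dashed lines at -1 and 1. Gray points are the 2287 genes with a probe that is dim in a channel, and they gather at low signal, whereas lower genes such as CD83, E2F2, CDCA5 and H4C3 extend from low to high signal.

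The labelled cell type was set against its markers. Of 14 squamous markers, 7 (KRT5, KRT6A, KRT17, PKP1, DSG3, DSC3 and TRIM29) were not well above background in either channel, and TP63, the squamous master regulator, was above it in red only (25.3 in mock and 32.99 after transfection). SOX2, another squamous transcription factor, measured 197 in mock and 491 after transfection, and PITX1 measured 5055 and 5224. Most of the defining squamous keratins and desmosomal proteins were thus not detected on this array, and the cells are named here by their line. The summed signal of the 14 squamous markers was 18163 in mock and 18692 after transfection. Of 10 adenocarcinoma and alveolar markers, 5 were above background in mock and 7 after transfection (summed signal 1545 and 2995), with NKX2-1, SFTPA1 and SFTPB in neither. Of 10 neuroendocrine markers only DLL3 was detected (sums 880 and 546). Of 9 leukocyte markers on the array, 4 and 6 were detected (sums 367 and 530), with MS4A1 and ITGAM among those in neither. Of 10 fibroblast and endothelial markers, 3 and 5 were detected (sums 449 and 591). Among them was DCN, a matrix proteoglycan, at 258 after transfection and not well above background in mock (11.03). The lowest signal well above background was 45.3 in mock and 27.0 after transfection, and 41.1% and 48.5% of all spots passed. A marker detected after transfection only is thus not shown to be higher by that alone. The part of these markers in the results below was not tested.

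The lower genes were led by genes of the cell division cycle. In proliferating cells, E2F transcription factors switch on the genes of DNA replication at the start of S phase, and the MuvB complex with B-MYB and FOXM1 switches on those of mitosis later, partly through a promoter sequence called the CHR. The 9 lists that cover this program, from G1/S regulators to cytokinesis together with histones and homologous recombination, held 296 distinct measured genes. Of these, 207 (69.9%) were below -1, against 6.04% of all genes, and 1 was above 1. Their median was -1.45. With normexp and loess, 113 of the 296 (38.2%) were below -1, against 1.75% of all genes, none was above 1, and the median was -0.79. In RNA from a whole culture, fewer cells in the cycle and less RNA per cell cannot be told apart. The genes made up 23.2% of all lower genes, so 685 lower genes lay outside the lists.

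Among G1/S regulators, 14 of 34 were below -1 and the median was -0.66. E2F2, an activator E2F, had a signal of 4460 in mock and 611 after transfection, a log2 ratio of -2.87. E2F1, another activator, measured 2598 and 396, and its ratio over 10 spots was -2.72 ± 0.046 (SD). The G1/S cyclins CCNE2 (258 and 38.9, -2.73) and CCNE1 (2238 and 784, -1.51) were lower too, as was CCND1 (2219 and 997, -1.15). The other E2F family members did not all lie as low. The repressors E2F7 and E2F8 were at -1.85 and -1.77, E2F3 was at -0.73, and E2F4, E2F5 and E2F6 lay between -0.24 and 0.29. The kinases CDK4 and CDK6, which partner D-type cyclins, were at -0.36 and -0.63, and CDK2, which partners cyclin E, was at -1.13. None of 7 measured CDK inhibitors was past 1 in either direction (-0.76 to 0.74), CDKN1A (p21) being at 0.28 and CDKN1B (p27) at 0.71. The only member above 1 was CCND2 at 1.75, which was not well above background in mock and was at least 2.95-fold higher after transfection.

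Replication origins are marked by the origin recognition complex, loaded with the MCM2 to MCM7 helicase with help of CDC6 and CDT1, and fired with CDC45 and the GINS complex. Of 29 licensing and helicase genes, 23 (79.3%) were below -1, with a median of -1.62. All 6 subunits of the MCM2 to MCM7 helicase were below -1, within a narrow range of -2.09 (MCM6, 13753 in mock and 3231 after transfection) to -1.47 (MCM5). All 4 GINS subunits were below -1 as well, from -2.79 to -1.62. GINS2, at 9286 in mock and 1345 after transfection, was spotted 10 times and gave -2.79 ± 0.044 (SD). MCM10, a replisome loading factor, had a signal of 298 in mock and a log2 ratio of -2.97 (-0.62 under normexp and loess), and CDC45 measured 10795 and 1900 (-2.51). The origin recognition complex was split. ORC1 and ORC6 were at -2.16 and -2.20, whereas ORC2, ORC3, ORC4 and ORC5 lay between -0.94 and 0.16.

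Of 31 genes of the replication fork, 23 (74.2%) were below -1 and the median was -1.58. PCNA, the sliding clamp, had a signal of 12850 in mock and 2205 after transfection (-2.54). The histone chaperones ASF1B and CHAF1B, which assemble nucleosomes behind the fork, were at -2.72 and -2.50. Of the clamp loader, RFC2, RFC3, RFC4 and RFC5 lay between -2.02 and -1.49 and RFC1 was at -0.09. The single-strand binding protein subunits RPA1, RPA2 and RPA3 lay between -0.94 and -0.61, none past -1. The small accessory polymerase subunits POLE4 (0.16) and POLD4 (0.57) were the highest of the list. In the supply of deoxynucleotides, 9 of 20 genes were below -1 with a median of -0.80. The lower ones included thymidine kinase TK1 (155010 in mock and 39073 after transfection, -1.99), thymidylate synthase TYMS (-1.93) and ribonucleotide reductase RRM2 (-1.91) and RRM1 (-1.68). Genes of purine and pyrimidine synthesis from precursors, such as CAD (-0.48) and GART (-0.36), were not past -1.

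Histone genes of the replication-dependent class, which are transcribed in S phase to package new DNA, were lower in 32 of 52 cases (61.5%), with a median of -1.30. The counts by histone class were unequal. All 10 measured H4 genes were below -1 (-2.15 to -1.36), as were 9 of 11 H3 genes and 10 of 13 H2A genes. Only 1 of 13 H2B genes was (H2BC11, -1.08), and the median of that class was -0.39. H4C3 showed 327127 in mock and 84205 after transfection (-1.96). Linker histones H1-5 (-2.69) and H1-1 (-1.99) were below -1, and H1-2 was at 0.64. The copies of a class are nearly identical in sequence, so a probe may read more than 1 of them, and the genes of a class are not independent. The split by class was made after the values were seen. It covers listed genes only. The histone genes H1-6, H2AC19 and H2AC25 were outside the list and above 1, and 1 of them was not well above background in mock.

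Genes of mitosis were lower as well. Of 29 mitotic entry genes, 26 (89.7%) were below -1 with a median of -1.39. CDK1, the mitotic kinase, gave -2.51 ± 0.051 (SD) over the 10 spots of a probe, and -2.82 as the mean with another probe that was dim after transfection. FOXM1 measured 8374 in mock and 2278 after transfection (-1.88), BIRC5 (survivin) -1.52 ± 0.024 (SD over 10 spots), and the proliferation marker MKI67 -2.03. The inhibitory kinase WEE1 (-0.83), the APC/C activator FZR1 (-0.19) and the phosphatase CDC25B (-0.02) were the members not past -1. Of 40 kinetochore and checkpoint genes, 33 (82.5%) were below -1, led by CENPU at 4870 in mock and 592 after transfection (-3.04), and the median was -1.66. The microtubule-binding SKA3 and SPC25 were at -2.53 and -2.46, the checkpoint kinases BUB1 and TTK at -1.86 and -1.97, and the checkpoint protein BUB3 at -0.35. Of 28 kinesin, condensin and cytokinesis genes, 23 (82.1%) were below -1, with a median of -1.47. They ranged from CIT (citron kinase, -2.75) and the spindle motor KIF15 (-2.57) to NCAPH (0.59), which was not well above background in mock. Under normexp and loess, 15 of 29 mitotic entry, 14 of 40 kinetochore and 9 of 28 kinesin, condensin and cytokinesis genes were below -1, beside 13 of 29 licensing, 13 of 31 fork and 28 of 52 histone genes. The order of the lists by their share thus depended on the processing.

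Repair of DNA by homologous recombination and the Fanconi anemia pathway, which is most active in S and G2 phase, gave 24 of 33 genes below -1 (72.7%) and a median of -1.53. With normexp and loess the values were 9 of 33 and -0.60. BRCA1 was at -2.25 ± 0.158 (SD over 10 spots). BRCA2 was not well above background after transfection and was at least 2.41-fold lower. The structure-specific nuclease genes FAN1 (0.22) and MUS81 (0.35) were the highest of the list. Among 26 genes of chromatin and DNA methylation, 10 were below -1 (5 under normexp and loess) and the median was -0.24. UHRF1, which brings the maintenance methyltransferase to new DNA, measured 2877 and 408 (-2.82), and DNMT1, that methyltransferase, measured 3334 and 1393 (-1.26). HELLS, a chromatin remodeler, measured 926 and 254 (-1.87). The de novo methyltransferases DNMT3A and DNMT3B were at 0.34 and -0.03, and the methylcytosine oxidases TET2 and TET3 at 0.30 and -0.18.

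**Figure D2:**
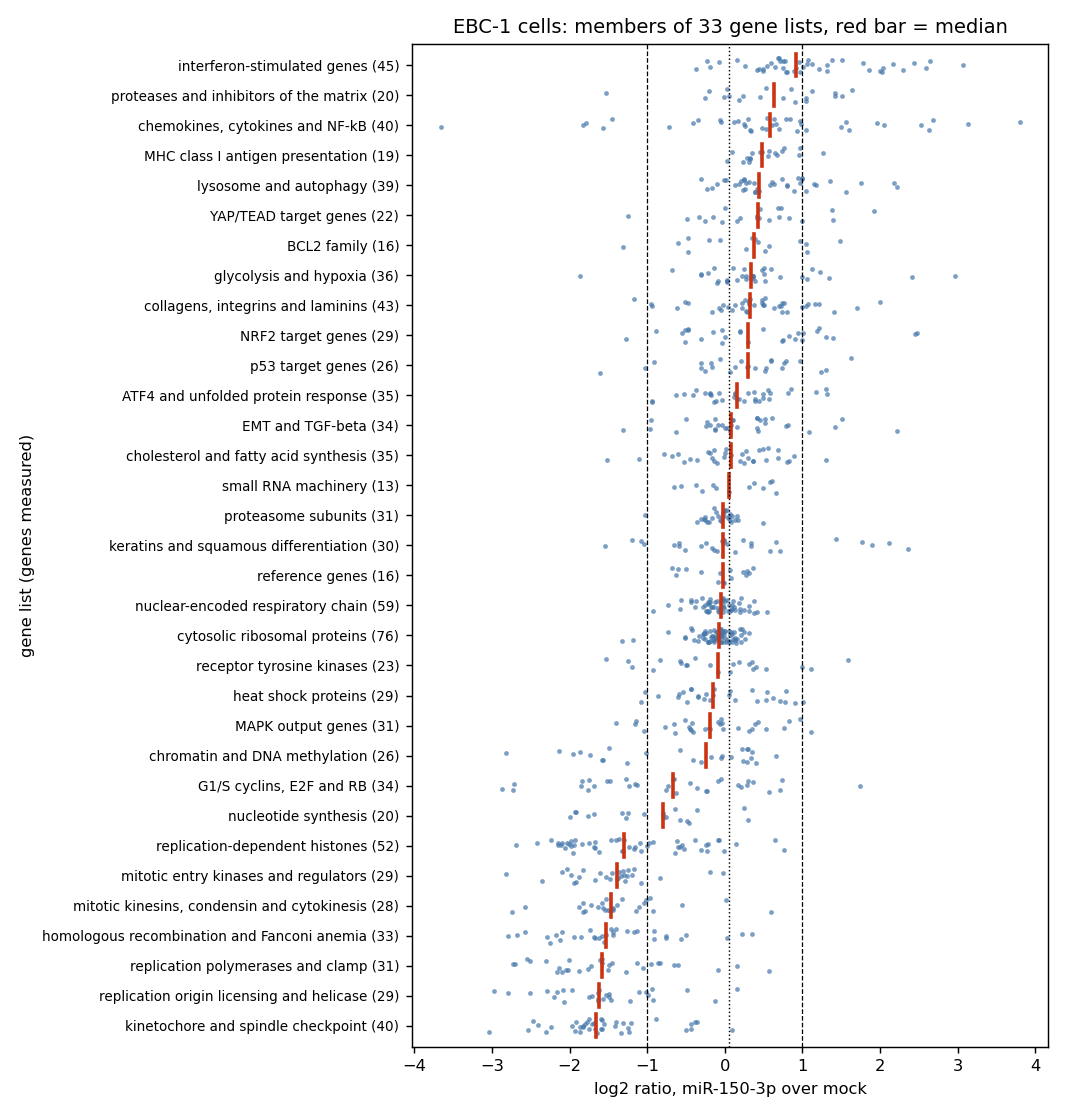
Log2 ratio of miR-150-3p over mock on the x axis for the measured members of 33 gene lists (1 point per gene, EBC-1 array), with the list and its number of measured genes on the y axis, red bars at list medians, dashed lines at -1 and 1, and a dotted line at the median of all genes. The 8 lists at the bottom, those of replication, mitosis, histones, recombination and nucleotide synthesis, have medians of -0.80 or lower, and the interferon-stimulated genes at the top have a median of 0.91.

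Families of gene symbols were counted beside the lists. Of 106 symbol families with at least 15 measured genes, the largest lower shares were those of the histones (36 of 74 H symbols), the kinesins (12 of 29 KIF), the RAD genes (7 of 18), the centrosomal CEP genes (10 of 37) and the CDC genes (7 of 28). Of the 10 lower CEP genes, CEP55 was in a list. The largest higher shares were those of the S (5 of 21, mainly S100 genes), SEMA (3 of 15), TM (3 of 15), DUSP (4 of 21) and CYP (5 of 30) symbols. They ranged from 16.7% (CYP) to 23.8% (S), against 5.96% of all genes. Of these higher genes, 2 S, 1 SEMA, 1 DUSP and 2 CYP genes were not well above background in mock. The S symbols also had 3 of 21 genes below -1 (14.3%). The KIF family was lower mostly in its mitotic motors, such as KIF11 (-1.82) and KIF2C (-1.45).

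The 12 lowest genes with all probes bright in both channels were CD83, LINC00618, CDCA5, CENPU, STAC, MCM10, MND1, E2F2, ESCO2, UHRF1, GINS2 and CCNE2. CD83, a surface protein of activated immune cells, had a signal of 1075 in mock and 85.2 after transfection, 12.6-fold lower (-3.66, software error 0.40). LINC00618, a long noncoding RNA, had 434 and 36.0 (-3.59). CDCA5 (sororin), which holds sister chromatids together, had 23610 and 2045, 11.5-fold lower (-3.53). STAC, an adaptor of calcium channels, measured 327 and 40.9. MND1, a partner in recombination, measured 2264 and 301 (-2.91), and ESCO2, the cohesin acetyltransferase, 261 and 36.9 (-2.82). CD83, LINC00618 and STAC thus stood beside 9 genes of replication, chromosome segregation and chromatin. Under normexp and loess, 5 of the 12 were no longer past -1, namely LINC00618 (-0.91), STAC (-0.70), MCM10 (-0.62), ESCO2 (-0.56) and CCNE2 (-0.49), and CD83 was at -1.77. Among lower genes of high signal were TUBA1B, an alpha-tubulin (237550 and 65955, -1.85), HMGN2, a nucleosome-binding protein (-1.68 over 3 probes), H2AZ2 (-1.12) and UBE2S, an ubiquitin-conjugating enzyme of the anaphase-promoting complex (-1.17).

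Among the 33 gene lists, interferon-stimulated genes had the highest median and the largest share above 1. Cells that sense foreign nucleic acid or interferon assemble a complex (ISGF3) that holds STAT2 and IRF9, binds a promoter sequence called the ISRE and switches on antiviral genes. Of 45 interferon-stimulated genes, 20 (44.4%) were above 1, against 5.96% of all genes, 0 were below -1, and the median was 0.91. Of the 45 genes, 41 were above 0 and 4 below it, where 45.9% of all genes were. Under normexp and loess, 9 of 45 were above 1, against 0.908% of all genes, and the median was 0.60.

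IFIT2, an antiviral RNA-binding protein, had a signal of 422 in mock and 3541 after transfection, 8.39-fold higher (3.07, 2.82 and 3.32 by probe). Its relatives IFIT3 (977 and 5914, 2.60) and IFIT1 (4068 and 18341, 2.17) were higher as well, whereas IFIT5 was at 0.44. RSAD2 (viperin) measured 107 and 582 (2.44), MX2 179 and 878 (2.30), and MX1 1596 and 6498 (2.03). The genes of the oligoadenylate synthetase family spread widely. OASL was at 1.99, OAS2 at 1.51, OAS1 at 0.79 and OAS3 at -0.37. The ISGF3 subunits IRF9 and STAT2 lay just above 1, at 1.13 and 1.31. The cytosolic RNA sensors RIGI (1.32), IFIH1 (1.06) and their regulator DHX58 (1.22) were close to them, and the RNA-activated kinase EIF2AK2 was at -0.19. ISG15, a ubiquitin-like modifier, was at 0.70.

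Antigen presentation by MHC class I, which interferon also raises, lay closer to 0. Of 19 genes, 1 was above 1 (5.26%, near the 5.96% of all genes), with a median of 0.48. All 19 of 19 were above 0, whereas 45.9% of all genes were below 0. That gene was TAP1, a subunit of the peptide transporter, at 8791 in mock and 21195 after transfection (1.27), and TAP2, its partner, was at 0.03. The 6 measured class I heavy chains had a median of 0.47, HLA-E being the lowest at 0.23, and the immunoproteasome subunits lay between 0.35 (PSMB8) and 0.96 (PSMB10).

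Chemokine, cytokine and NF-kB genes lay on both sides of 0. Of 40 genes, 11 were above 1 (27.5%) and 5 below -1 (12.5%), and the median was 0.58. Among the members bright in both channels, by the rule of at least 1 spot per probe, 5 were above 1 and 5 below -1. Under normexp and loess, 4 were above 1 and 4 below -1, with a median of 0.28. ICAM1, an adhesion molecule, had 569 in mock and 3661 after transfection, 2.69 ± 0.061 (SD over 10 spots). SOD2, a mitochondrial superoxide dismutase induced by NF-kB, had 10233 and 58955 (2.53), and the chemokine CCL5 had 321 and 968 (1.59). Other chemokines and cytokines of the list were not well above background in mock, and only a bound could be set. CCL20 was at least 7.83-fold higher, CXCL10 at least 3.06-fold and PTGS2, the inducible cyclooxygenase, at least 2.67-fold. CCL2, read by a probe with 10 spots, was at 1.959 ± 0.52 (SD), the widest spread named here. Only 2 of the 10 spots were well above background in mock, which is enough for the probe to pass as bright under that rule. The lower members, beside CD83, were cytokines, namely IL11 (2553 and 720, -1.83), CSF3 (-1.79), IL23A (-1.57) and CSF2 (5073 and 1860, -1.45). The NF-kB subunits NFKB1, NFKB2, RELA and RELB lay between 0.26 and 0.70.

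**Figure D3:**
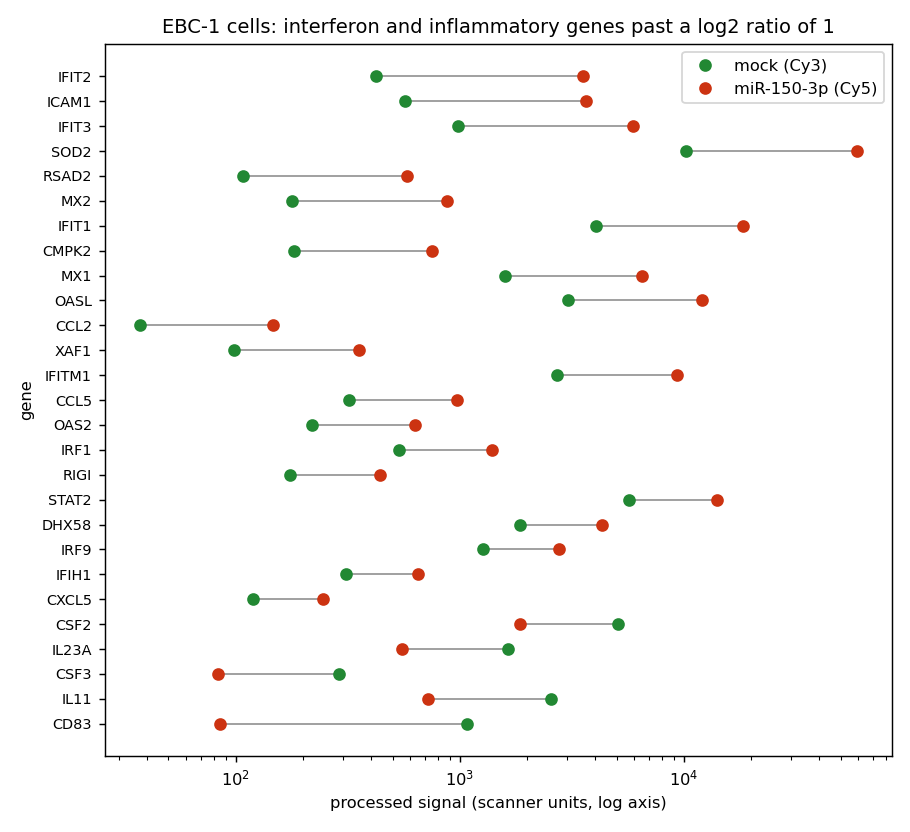
Processed signal on a log x axis for the reported genes of the interferon and the chemokine, cytokine and NF-kB lists that are bright in both channels on the EBC-1 array and past a log2 ratio of 1 in either direction, 1 gene per line of the y axis. A probe with several spots passes as bright if at least 1 of them is. Green points are mock, red points are miR-150-3p, and gray lines join them. The 5 genes at the bottom (CSF2, IL23A, CSF3, IL11 and CD83) are lower after transfection and the others higher, up to IFIT2 at 422 and 3541 at the top.

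The 12 highest genes with all probes bright in both channels were SERPINB4, SERPINB3, IDO1, GBP5, IFIT2, SLC2A14, MUCL1, DEFB1, ICAM1, NEAT1, P2RY6 and RTP4. SERPINB4 and SERPINB3, protease inhibitors known as squamous cell carcinoma antigens, had signals of 58.8 and 90.1 in mock and 911 and 1307 after transfection (3.95 and 3.86). These paralogs are close in sequence, so their probes may read each other's RNA. IDO1, the tryptophan-degrading enzyme induced by interferon gamma, had 339 and 4324, 12.7-fold higher (3.67). GBP5, an interferon-induced GTPase, had 306 and 2657 (3.12), and RTP4, another interferon-stimulated gene, 295 and 1834 (2.63). DEFB1, an epithelial antimicrobial peptide, had 229 and 1505 (2.72), and its mean over the 6 arrays of other treatments was -1.14. NEAT1, the long noncoding RNA of paraspeckles, had 2841 and 17965 (2.66, 2.38 to 2.83 over 3 probes). SLC2A14 is a glucose transporter close in sequence to SLC2A3, and had 70.0 and 545 (2.96). The mean over those 6 arrays was 0.81 for SLC2A14 and 0.40 for NEAT1, and lay between -0.27 and -0.09 for IDO1, IFIT2 and ICAM1. After subtraction SLC2A14 was at 2.15 and NEAT1 at 2.26. The rest of the 12 had no value there. P2RY6 is a nucleotide receptor (768 and 4793, 2.64), and MUCL1 a small secreted mucin-like protein (57.2 and 418, 2.87). Of these 12 genes, SLC2A14 and MUCL1 were at 0.88 and 0.66 under normexp and loess, and the other 10 stayed above 1. Ratios as high as 5.00 (PLEKHG7) occurred among genes dim in mock, where the bound was at least 8.45-fold.

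Among higher genes of high signal were ANGPTL4, a secreted lipase inhibitor (74759 in mock and 189819 after transfection, 1.34), GRN, the progranulin precursor (1.14), MVP, the vault protein (1.25), SQSTM1, an autophagy receptor (1.36) and SAT1, the polyamine acetyltransferase (1.90). In the same order, their means over the 6 arrays of other treatments were 0.37, 0.62, 0.43, 0.26 and 0.18. After subtraction of these means, ANGPTL4 (0.97), GRN (0.52) and MVP (0.81) were not above 1, and SQSTM1 (1.09) and SAT1 (1.72) were. The part of dye bias in these ratios was not tested. RNA18SN5, the 18S ribosomal RNA, was also among them at 48012 and 127602 (1.41), beside -0.02 on the SK-MES-1 array, while the 28S ribosomal RNA RNA28SN5 was at 0.34. The part of rRNA content in the other ratios was not tested.

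**Figure D4:**
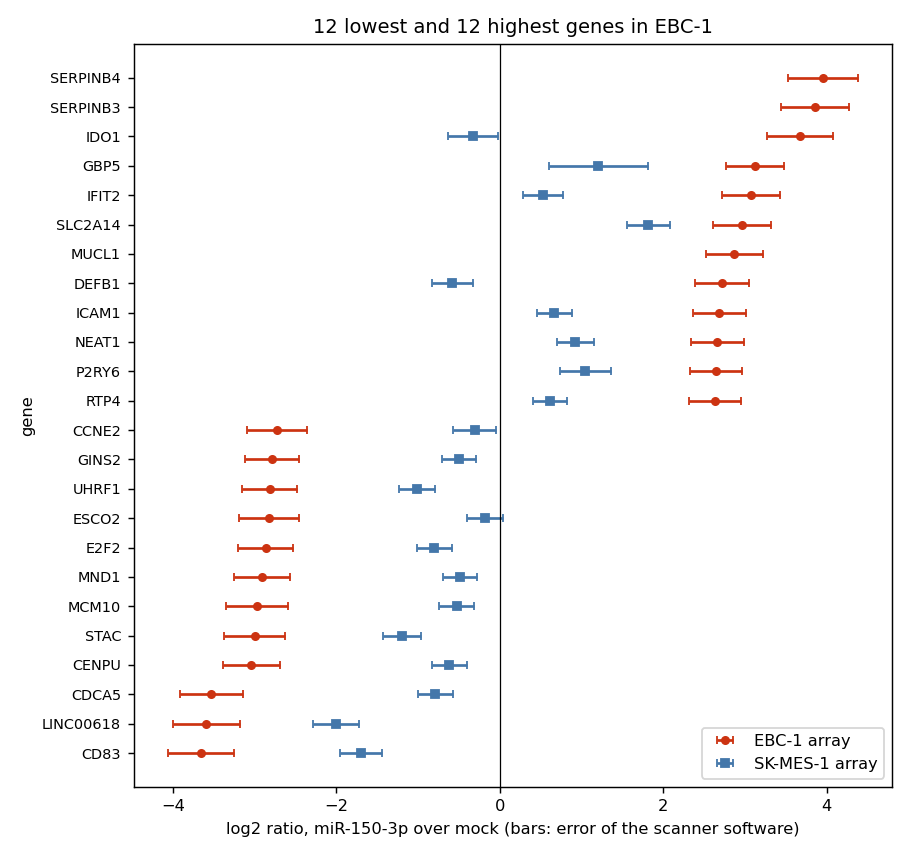
Log2 ratio of miR-150-3p over mock on the x axis for the 12 lowest and 12 highest genes of the EBC-1 array (y axis), with red circles for EBC-1 and blue squares for SK-MES-1, 1 array each, and bars for the scanner software's error. All 12 lower genes lie below 0 on both arrays, and among the 9 higher genes with a value on the SK-MES-1 array, IDO1 and DEFB1 lie below 0 there.

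Lysosome and autophagy genes were higher in 8 of 39 cases (20.5%), none was below -1, and the median was 0.44. CTSZ (376 and 1699, 2.18) and CTSL (7339 and 24744, 1.75) are lysosomal proteases, and WIPI1 (958 and 4471, 2.22) acts in the forming autophagosome. NPC1, the lysosomal cholesterol exporter, was at 1.18 ± 0.044 (SD over 10 spots). The V-ATPase subunits of the list were not past 1 (-0.01 to 0.80).

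Of 29 targets of the oxidative stress factor NRF2, 7 were above 1 (24.1%) and 1 was below -1, with a median of 0.30. Heme oxygenase HMOX1 was at 4809 and 26354, 2.45 ± 0.038 (SD over 10 spots), and the aldo-keto reductases AKR1C1 and AKR1B10 were at 2.48 and 1.39. The lower one was the carbonyl reductase CBR1 (-1.28). Of 36 glycolysis and hypoxia genes, 7 were above 1 (19.4%) and 1 below -1 (2.78%), with a median of 0.34. ADM, a peptide induced by hypoxia, was at 1.23 ± 0.021 (SD over 10 spots), and FAM162A was at -1.87. Of 35 genes of ATF4 and the unfolded protein response, 3 were above 1, including the cystine transporter SLC7A11 (1.30), and 0 below -1. The share above 1 was 8.57%, near the 5.96% of all genes, and the list median was 0.16. After subtraction of the 6 other arrays this median was 0.60. Of 29 heat shock genes, 1 was above 1 (3.45%) and 2 below -1 (6.90%, near the 6.04% of all genes). The median was -0.15, and HSP90AA1 was at -1.08.

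Matrix genes lay mostly on the higher side. Of 20 proteases and inhibitors of the matrix, 7 were above 1 (35.0%) and 1 below -1, with a median of 0.64. They included the gelatinase MMP9 (1249 and 3879, 1.64) and MMP7 (1.42). Under normexp and loess the median of this list was 0.16. Of 43 collagen, integrin and laminin genes, 7 were above 1 (16.3%) and 1 below -1 (2.33%). The median was 0.32, with COL12A1 at 1.70 and COL4A6 at -1.17. Of 34 genes of the epithelial-mesenchymal transition and TGF-beta, 4 were above 1 (11.8%) and 1 below -1 (2.94%), beside 5.96% and 6.04% of all genes. The median was 0.08. VIM, the mesenchymal filament, was at -0.96, and CDH3, P-cadherin, at 1.42. Of 22 targets of the YAP and TEAD factors, 3 were above 1 (13.6%) and 1 below -1 (4.55%), with a median of 0.43. CCN2 was at 1.38 and AXL, a receptor tyrosine kinase, at -1.24.

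In the growth factor pathways, 4 of 31 MAPK output genes were below -1 (12.9%) and 1 above 1 (3.23%), beside 6.04% and 5.96% of all genes. The list median was -0.18. The AP-1 subunits went apart, with FOSL1 at 12781 in mock and 4826 after transfection (-1.40), FOS at -1.14 and JUNB at 1.11. Of 23 receptor tyrosine kinases, 3 were below -1 and 2 above 1 (median -0.08), MERTK being at -1.20 and DDR1 at 1.11. Of 30 keratin and squamous differentiation genes, 4 were below -1 (13.3%) and 5 above 1 (16.7%), with a median of -0.02. The calcium-binding S100A9 was at 1874 and 8153 (2.12), S100A8 at 1.90 and S100A2 at -1.55, while the keratins KRT7, KRT8, KRT18 and KRT19 lay between -0.17 and 0.13.

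Genes of cell death showed no single direction. Of 26 p53 targets, 3 were above 1 (11.5%) and 2 below -1 (7.69%), beside 5.96% and 6.04% of all genes. The list median was 0.29, and 0.046 after subtraction of the 6 other arrays. The p53-inducible TP53I3 was at 1.24 and the repair factor DDB2 at -1.61, whereas MDM2 and BAX were at -0.30 and -0.07. Of 16 genes of the BCL2 family, 3 were above 1 (18.8%) and 1 below -1 (6.25%, near the 6.04% of all genes), and the median was 0.37. The higher ones were the death-promoting BH3-only genes BMF (1.49), BIK (1.06) and HRK (1.04). None of the 16 was past 1 in either direction under normexp and loess. BCL2 itself, an inhibitor of cell death, was not well above background after transfection and was at least 2.43-fold lower.

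Housekeeping groups lay close to 0. None of 59 nuclear-encoded respiratory chain genes, 13 genes of the small RNA machinery or 16 reference genes was past 1 in either direction (medians -0.05, 0.05 and -0.02). Of 76 cytosolic ribosomal proteins 2 were below -1 (RPS23 at -1.18 and RPL27A, which was dim after transfection), with a median of -0.07, and of 31 proteasome subunits 1 was below -1 (PSMB1, -1.02), with a median of -0.02. Of 35 cholesterol and fatty acid synthesis genes, 2 were below -1 (5.71%) and 1 above 1 (2.86%), beside 6.04% and 5.96% of all genes. The median was 0.08, with MVK, mevalonate kinase, at -1.51. Common reference genes were not all at 0, GAPDH being at -0.67 and ACTB at -0.63.

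Promoter sequences were set beside these groups because E2F factors, MuvB complexes and ISGF3 bind known motifs. RefSeq promoters of 300 bases around the start of transcription (GRCh38.p14) were matched by symbol to 11467 of the 14759 genes. The E2F site was searched as TTTCCCGC, TTTGGCGC, TTTCGCGC or TTTGCCGC, the CHR element as TTTGAA and the ISRE as GAAA followed by any 2 bases and GAAA again, each on both strands, and a match to the ISRE can share bases with a match to the CHR element. The 30-base windows below hold a motif that lies before the start of transcription in some lower genes of the replication and cytokinesis lists and in some higher interferon-stimulated genes, with the motif in capitals and the strand of the gene.
GINS2, E2F site, chr16:85688967-85688996, minus strand: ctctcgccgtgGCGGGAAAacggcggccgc
PCNA, E2F site, chr20:5126663-5126692, minus strand: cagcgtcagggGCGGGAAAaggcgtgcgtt
MCM6, E2F site, chr2:135876511-135876540, minus strand: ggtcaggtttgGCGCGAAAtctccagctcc
RFC3, E2F site, chr13:33818083-33818112, plus strand: atttggagctcGCGGGAAAacttgtctctg
CIT, CHR element, chr12:119877511-119877540, minus strand: gtaaccgccaatTTCAAActtccaagacct
KIF15, CHR element, chr3:44761747-44761776, plus strand: ccaagcgccaaaTTCAAAtttgcggccatc
IFIT3, ISRE, chr10:89327865-89327894, plus strand: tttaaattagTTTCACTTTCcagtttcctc
IFIT1, ISRE, chr10:89392510-89392539, plus strand: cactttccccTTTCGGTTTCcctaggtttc
IFITM1, ISRE, chr11:313990-314019, plus strand: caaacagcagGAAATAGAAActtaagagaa

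The motif lay 31 bases before the start of transcription in GINS2, 59 in PCNA, 86 in MCM6, 35 in KIF15, 122 in IFIT3 and 103 in IFIT1. The KIF15 window also holds an E2F site, not in capitals, directly before the CHR element (TTTGGCGC on the other strand). Of all 27305 promoters, 3.33% held an E2F site, 15.4% a CHR element and 3.65% an ISRE. An E2F site was found in 93 of 719 promoters of genes below -1 (12.9%), 4.59% of genes between -1 and 1 and 2.95% of genes above 1. It was most frequent in the licensing and helicase list (12 of 23 promoters, 52.2%), followed by the chromatin and DNA methylation list (7 of 22, 31.8%), the histones (14 of 47, 29.8%) and the replication fork list (8 of 27, 29.6%). Outside the cell cycle lists, 50 of 546 promoters of lower genes held it (9.16%). The CHR element had another distribution. It was in 21 of 26 promoters of the kinesin, condensin and cytokinesis list (80.8%) and 15 of 22 of the mitotic entry list (68.2%). The kinetochore list held it in 14 of 32 (43.8%), the histones in 19 of 47 (40.4%) and the licensing list in 1 of 23 (4.35%). By ratio, 19.2% of genes below -1 held it, 9.24% of those between -1 and 1 and 12.9% of those above 1. The ISRE was found in 22 of 35 interferon-stimulated genes (62.9%) and 7 of 15 MHC class I genes (46.7%), in 6.36% of genes above 1 and in 1.67% of genes below -1. The GAS element, TTCNNNGAA, another motif of interferon-responsive promoters, was in 7.88% of all promoters and 28.6% of the interferon-stimulated genes. It was in 0 of 15 MHC class I genes, 7.75% of genes above 1 and 5.98% of genes below -1.

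Read the other way, genes with an E2F site, a CHR element or an ISRE differed from those without it in how many were past the threshold. For the GAS element the shares were close. Of 576 genes with an E2F site, 16.1% were below -1 and 3.30% above 1, against 5.75% and 5.75% of 10891 genes without. Of 1155 genes with a CHR element, 11.9% were below -1 and 7.19% above 1, against 5.63% and 5.45% of those without. Of 338 genes with an ISRE, 12.13% were above 1 and 3.55% below -1, against 5.43% and 6.35% of those without. Of 755 genes with a GAS element, 6.62% were above 1 and 5.70% below -1, against 5.55% and 6.31% of those without. Inside a list the medians with and without the motif differed in no single direction. In the licensing list, the 12 genes with an E2F site had a median of -1.60 and the 11 without it -1.63, and in the fork list the 8 with it had -1.87 and the 19 without it -1.60. In the kinesin, condensin and cytokinesis list, the 21 with a CHR element had -1.53 and the 5 without it -1.05, and among interferon-stimulated genes the 22 with an ISRE had 0.72 and the 13 without it 1.13. A match of letters is a description of the promoter and not evidence of binding, and genes of a list are not independent.

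**Figure D5:**
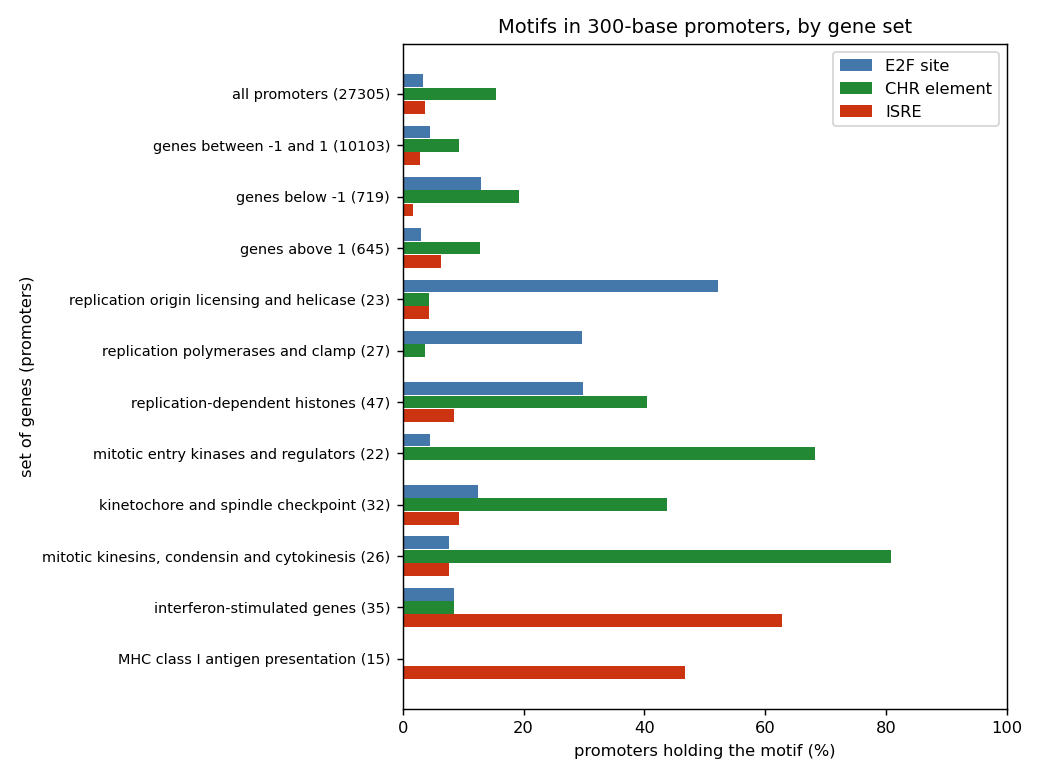
Share of RefSeq promoters (x axis, percent) that hold an E2F site (blue), a CHR element (green) or an ISRE (red), for sets of genes on the y axis with the number of promoters in brackets. The E2F site peaks in the licensing and helicase list (52.2%), the CHR element in the kinesin, condensin and cytokinesis list (80.8%) and the ISRE in the interferon-stimulated genes (62.9%).

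The SK-MES-1 array gives the same transfection in another LUSQ line, on separate RNA and with its own control. It is set beside the EBC-1 values without a test, as there is 1 array of each. Of the genes below -1 and bright in both channels in EBC-1, 718 also had a value bright in both channels in SK-MES-1. Their median on the EBC-1 array was -1.35 and on the SK-MES-1 array -0.29 (quartiles -0.50 and -0.12), and 635 of them (88.4%) were below 0 in SK-MES-1, where 51.6% of all such genes were. Of those 718 genes, 42 were below -1 there. The corresponding 364 higher genes had medians of 1.30 and 0.33, and 312 (85.7%) were above 0 in SK-MES-1, where 48.4% of all such genes were, with 20 above 1. The direction was thus mostly shared. The genes were chosen by EBC-1 values past the threshold and not by SK-MES-1 values. Their smaller size in SK-MES-1 can therefore not be read as a difference between the lines. Both arrays have the transfected RNA in Cy5, so a dye bias of a probe would be shared too. The mean over the 6 arrays of other treatments had a median of -0.11 over the licensing and helicase genes and 0.08 over the 27 of 45 interferon-stimulated genes that had a value there.

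The licensing and helicase genes had a median of -1.62 here and -0.16 on the SK-MES-1 array, and the replication fork genes -1.58 and -0.24. Interferon-stimulated genes had 0.91 and 0.46. IFITM1, an antiviral membrane protein, was nearly equal on both arrays (1.79 and 1.82), as was IRF9 (1.13 and 1.13), while MX1 was at 2.03 and 1.80. CD83 was at -3.66 and -1.69 and LINC00618 at -3.59 and -2.005. Other genes differed in direction. HMOX1 was at 2.45 and on the SK-MES-1 array at -1.05, LOX, a collagen cross-linking enzyme, at 1.83 and -0.74, and SOX2 at 1.32 and -0.92. None of these differences was tested.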

How the data were processed

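RNA from EBC-1 cells with miR-150-3p (Cy5) and mock (Cy3) was hybridized to 1 two-channel Agilent array. The authors deposited the output of Agilent Feature Extraction 12.1.1.1, which subtracts background and spatial trends from the intensities and then balances the dyes. The deposited files also hold the log10 ratio of red over green, which the deposited series table repeats (largest difference 0), and p-values of the software's error model, which were not used. Per the file headers, all arrays share a slide.

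Log2 ratios of the processed intensities were taken. Of 60901 spots that are not controls, 96 were marked as outliers and left out, and 0 were saturated. Signals well above background were found at 41.1% of the spots for mock and 48.5% for miR-150-3p. Of 50096 accessions, 24782 matched a current RefSeq symbol, so that 19492 of 27229 counted probes were named. The array was designed on an earlier genome build than that of the RefSeq table, which supplied no gene coordinates.

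The thresholds were log2 ratios of -1 and 1. For a gene dim in a channel, the fold is a bound against the lowest signal well above background in that channel (45.3 in mock, 27.0 after transfection) or the gene's own signal if higher. With 1 array there is no test. The number of arrays limits the precision. Named genes were the 12 lowest and 12 highest bright in both channels with all probes past the threshold, the 8 of highest signal on either side, members of a defined role in each list with its lowest and highest members, and HELLS. Members and gene lists were chosen with earlier results of these data known. Alternatives tried were normexp with loess, centring, filters on dim or marked spots, probe summaries, thresholds and subtraction of the 6 arrays of other treatments, using limma 3.58.1 (R 4.3.3), pandas 2.3.3 and Python 3.11.15. Some genes are not reported here. The calculation was tested on simulated data.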

Additional observations from a re-analysis of the deposited data

Results flagged for a closer look

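Of the named and listed genes bright on both miR-150-3p arrays, together with LOX, which was added after its values were seen, some were past the threshold in EBC-1 and on the opposite side of 0 in SK-MES-1, with the interval from the software's error clear of 0 on each array. All 8 of them were above 1 in EBC-1. Among secreted factors, ANGPTL4 was at 1.34 in EBC-1 cells and -0.53 in the other line, the antimicrobial peptide DEFB1 at 2.72 and -0.58, and the matricellular CCN2 at 1.38 and -0.89. Among enzymes, HMOX1 was at 2.45 and -1.05, the collagen cross-linking LOX at 1.83 and -0.74, the lysosomal CTSZ at 2.18 and -0.58, and the plasminogen activator PLAT at 1.12 and -0.41. The transcription factor SOX2 was at 1.32 and -0.92. With 1 array per line these differences were not tested. The mean over the 6 arrays of other treatments was 0.37 for ANGPTL4 and -1.14 for DEFB1.

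Probes without a current symbol entered no gene list. Under the main rule, 265 of 7737 such probes were below -1 and 687 above 1. With both channels well above background, 198 were below -1 and 122 above 1.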

How the results depend on the processing

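Of 370 list members and named genes past the threshold, 1 (CENPP, with its brightest probe) had the opposite sign in an alternative, and 186 were still past it with normexp and loess and 275 of 321 after subtraction of the 6 other arrays. Of 22 alternative counts of lower and higher genes, 12 stayed within 1.5 times the counts of 892 and 879. The counts were 259 and 134 with normexp and loess, 368 and 343 at a threshold of 1.5, 2071 and 2371 at 0.58, and 1457 and 1844 with all probes counted singly. The higher genes numbered 480 of 13107 when both channels had to be bright and 440 of 12969 after subtraction of the 6 other arrays. All 259 lower genes and 132 of the 134 higher genes under normexp and loess were among the 892 and 879. Its offset of 50 is added to both channels and pulls dim ratios toward 0. With it the medians were -0.97 for licensing and helicase genes, -0.71 for kinetochore genes and 0.60 for interferon-stimulated genes. It also left above 1 no YAP and TEAD target, 1 of 43 collagen, integrin and laminin genes, 1 of 35 ATF4 genes, 2 of 36 glycolysis and hypoxia genes and 4 of 20 matrix proteases, and left below -1 only 6 of 34 G1/S, 6 of 20 nucleotide synthesis, 1 of 31 MAPK and 1 of 23 receptor tyrosine kinase genes. In 10 lists, with medians of -0.08 to 0.38, the median changed sign in at least 1 alternative, and these are the receptor tyrosine kinases, EMT and TGF-beta, keratins, cholesterol synthesis, proteasome, small RNA machinery, reference genes and the squamous, leukocyte and stromal markers. The mean of the 6 other arrays includes cells with siRNA against DONSON, a replication gene.

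No paired analysis was possible because there was 1 array of each cell line, and no replicate could be left out. Dim probes limit the higher genes most, as 379 of 879 were not well above background in mock.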

Other observations

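Other families were listed after the values were seen and are given as values only. All 5 measured guanylate-binding proteins, GTPases induced by interferon gamma, were above 1, from GBP3 (1.02) to GBP5 (3.12), with a median of 1.61. Of 17 genes of cohesin and sister chromatid cohesion, 7 were below -1 and the median was -0.69. These were the establishment and maintenance factors CDCA5 (-3.53), ESCO2 (-2.82), DSCC1 (-2.43), CHTF18 (-1.46) and DDX11 (-1.37) and the subunits SMC3 (-1.19) and STAG1 (-1.18), while the core subunit RAD21 was at -0.63 and the releasing factor WAPL at 0.08. Among mismatch repair genes, MSH6 measured 5866 in mock and 2309 after transfection (-1.34), and MSH3 was at 0.04.

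Of 8 measured clade B serpins, SERPINB3 and SERPINB4 were above 1, and the others lay between -0.26 (SERPINB9) and 0.76 (SERPINB5), with a median of 0.70. Of the abundant nuclear long noncoding RNAs, NEAT1 was at 2.66 and MALAT1 at 0.56. Genes read by probes with 10 spots and outside the lists included DTL, a substrate receptor for degradation in S phase (-2.66 ± 0.085, SD over 9 spots kept), PCLAF, a PCNA-binding factor (-1.89 ± 0.019), TERT, the telomerase reverse transcriptase (-1.26 ± 0.141), LOX (1.83 ± 0.098) and FOXA1, an epithelial transcription factor (1.104 ± 0.041).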
